A study of Mus musculus with 12 samples.

Results

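Melanophages are skin macrophages loaded with melanin, the pigment that melanocytes make. Here the MHC-II-negative melanophages were set against the MHC-II-negative macrophages. The arrays were chosen by their cell type label alone: 3 arrays carried the label of MHC-II-negative melanophages and 3 that of MHC-II-negative macrophages, which makes 6 of the 12 arrays of the series. The other 6 arrays, 3 of MHC-II-positive melanophages and 3 of MHC-II-positive macrophages, entered the model and served as the nearest comparison. All 12 arrays came from untreated, wild-type C57BL/6 (B6) mice kept specific-pathogen-free. According to the labels, the gate for every group was positive for CD11b and CD64 and negative for CD24, CCR2 and Ly6C. The groups were then parted by MHC-II and by side scatter (SSC-A), the light scattered by granules inside a cell. Side scatter was high for melanophages. For the macrophages the titles say high and the phenotype field says low, so side scatter was not used to assign any array. The age and sex of the mice, and whether cells of several mice were pooled, were not given in any source used.

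MHC-II molecules display peptides to CD4 T cells, and dermal macrophages differ widely in how much of them they carry. Macrophages take up pigment shed by melanocytes or freed by dying pigment cells. They hold it in membrane-bound vacuoles of the endolysosomal system, where it is degraded poorly. Lysosomes digest cargo with acid hydrolases, and a proton pump, the V-ATPase, keeps them acid. The comparison addresses what sets cells labelled melanophages apart from cells labelled macrophages when both are labelled MHC-II-negative. The pigment content of either group was not given.

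Expression is given as log2 values, which the authors obtained by RMA, robust multi-array averaging. 19938 genes were compared, each through 1 probe set. A difference below is always the mean of MHC-II-negative melanophages minus that of MHC-II-negative macrophages on the log2 scale, with its standard error (SE) from limma. Genes with a Benjamini-Hochberg adjusted p below 0.05, taken over the whole table, are the called genes. The array medians lay between 2.97 and 3.08, so values near 3 are at the dim end of the scale and differences there may be understated. MHC-II-negative macrophages replicate 1 stood farther from its group mates than any other of the 6 arrays (mean correlation 0.972, against 0.98 to 0.985 for the other 5).

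The clearest difference between the cell kinds was the level of Retnla, which encodes RELM-alpha, a small secreted protein made by alternatively activated macrophages. Retnla measured 8.28, 8.88 and 7.68 in the 3 melanophage arrays and 11.26, 11.54 and 11.57 in the 3 macrophage arrays. The groups did not overlap, and the macrophage arrays lay close together (SD 0.17, n = 3) while the melanophage arrays spread more (SD 0.60, n = 3). Retnla was 9.04-fold lower in melanophages (difference -3.18 ± 0.28 SE, limma adjusted p = 0.00605), and no other gene of the table was called (1 gene, 0.00502% of those tested). The value is for sorted cells in bulk, in which fewer cells making Retnla and less Retnla RNA in each cell cannot be told apart. The call rests on the model of all 12 arrays: with the 6 MHC-II-negative arrays alone the difference was the same and the adjusted p was 0.108. It was also lost when replicate 1 of the MHC-II-negative melanophages was left out (adjusted p = 0.0647), and without MHC-II-negative macrophages replicate 2 (0.0678) or 3 (0.0681).

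Apart from Retnla no gene passed, and the next adjusted p was 0.0945. Before adjustment, p was under 0.05 for 1126 genes (5.65%), of which 619 were higher in melanophages (3.1%) and 507 lower (2.54%). The arrays of the groups did not overlap, or were apart, for 1890 genes (9.48%), with 1111 higher (5.57%) and 779 lower (3.91%) in melanophages. Of these, 29 genes (0.145%) were at least 2-fold higher and 53 (0.266%) at least 2-fold lower. The difference was above 0 for 52.4% of genes and below 0 for 47.6%, and its median over all genes was 0.01. In what follows, a gene other than Retnla is described by its arrays and its difference, and none of these differences passed the test over all genes.

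**Figure D1:**
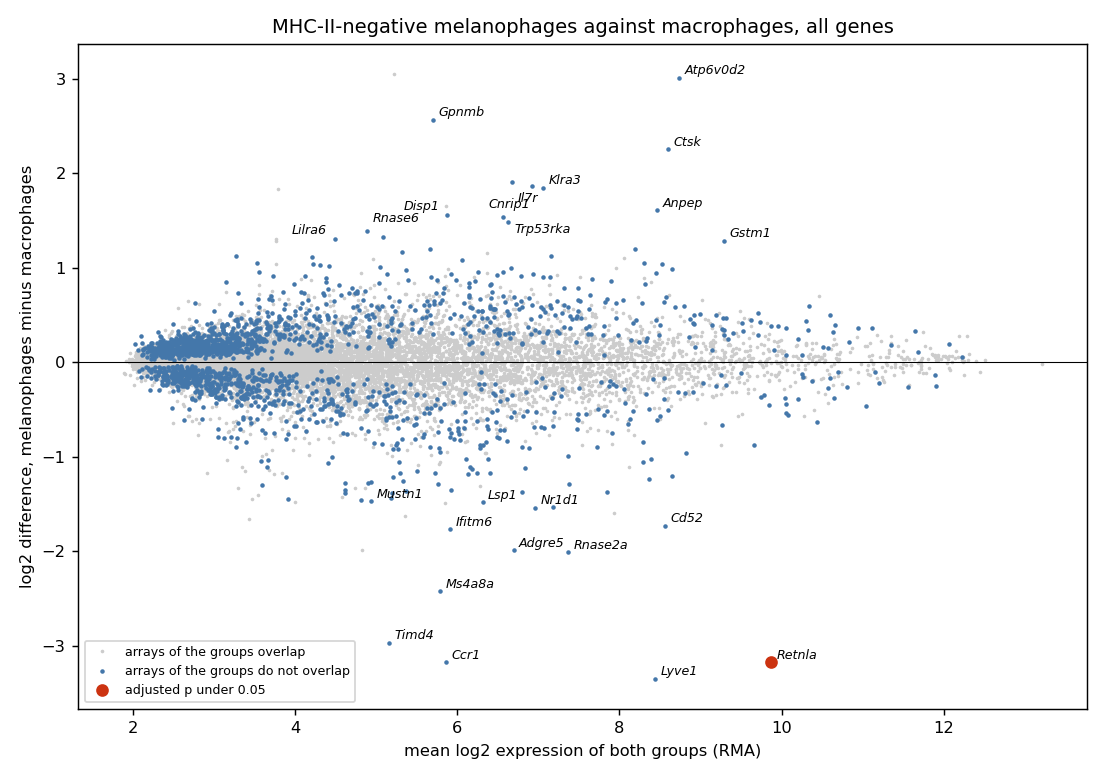
Each point is 1 gene, with the mean log2 expression of both MHC-II-negative groups on the horizontal axis and the log2 difference, melanophages minus macrophages, on the vertical axis. Blue genes have arrays that do not overlap between the groups, Retnla in red is the called gene, and the names mark the 12 largest differences in each direction among non-overlapping genes with a group mean of at least 5, predicted genes left out. Lyve1, Retnla, Ccr1 and Timd4 lie lowest and Atp6v0d2, Gpnmb and Ctsk are the highest of the named genes.

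Retnla had the largest difference of the 4 resistin family genes measured. Retn (difference 0.00 ± 0.09), Retnlb (-0.04 ± 0.09) and Retnlg (-0.15 ± 0.11) all had group means under 4, near the array medians. The promoter of Retnla is shown here because it belongs to the called gene, beside those of Ctsk and Gpnmb, which differed in the opposite direction. The windows are from RefSeq on build GRCm38.p6, run from 250 bases before to 50 after the gene's start and are written 5′ to 3′ on the gene's strand, which is the plus strand for all 3. They lie at chr16:48842359-48842658 for Retnla, chr3:95498960-95499259 for Ctsk and chr6:49036268-49036567 for Gpnmb. Capitals mark the letters of the motifs searched on both strands: CACGTG and CATGTG, E-box forms that transcription factors of the MITF and TFE family can bind, TGACTCA, the AP-1 motif, and a STAT6 form, which reads TTC, any 4 bases and GAA.
Retnla: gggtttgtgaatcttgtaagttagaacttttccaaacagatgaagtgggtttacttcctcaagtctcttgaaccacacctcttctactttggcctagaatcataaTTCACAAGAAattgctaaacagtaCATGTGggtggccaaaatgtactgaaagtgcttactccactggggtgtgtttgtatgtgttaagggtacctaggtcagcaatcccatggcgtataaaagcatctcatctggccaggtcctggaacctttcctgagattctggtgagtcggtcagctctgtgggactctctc
Ctsk: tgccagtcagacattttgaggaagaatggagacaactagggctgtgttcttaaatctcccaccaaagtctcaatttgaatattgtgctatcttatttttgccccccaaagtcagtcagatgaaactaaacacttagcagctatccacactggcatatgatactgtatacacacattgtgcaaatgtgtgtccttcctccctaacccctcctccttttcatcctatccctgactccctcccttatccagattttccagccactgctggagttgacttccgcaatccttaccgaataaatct
Gpnmb: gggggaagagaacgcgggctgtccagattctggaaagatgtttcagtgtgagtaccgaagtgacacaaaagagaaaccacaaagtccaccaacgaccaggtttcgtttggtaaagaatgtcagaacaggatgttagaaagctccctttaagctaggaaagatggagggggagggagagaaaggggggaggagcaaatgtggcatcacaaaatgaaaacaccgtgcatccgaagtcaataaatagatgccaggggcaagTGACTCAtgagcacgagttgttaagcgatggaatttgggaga
The Retnla window holds 1 STAT6 form and 1 CATGTG, which do not overlap. The Gpnmb window holds 1 AP-1 motif, and the Ctsk window holds 0 of the 4 motifs. Among all 32851 promoter windows of this length, CACGTG occurs in 7.15%, CATGTG in 14.2%, TGACTCA in 5.2% and the STAT6 form in 6.95%. Of the 24 genes with the largest differences named in the plot of difference against level, 19 have a window. CACGTG was found in 0 of the 11 such genes higher in melanophages and 0 of the 8 lower. CATGTG was found in 2 of the 11 (Disp1 and Rnase6) and in 4 of the 8 (Ifitm6, Nr1d1, Retnla and Timd4). TGACTCA was found in 1 of the 11 (Gpnmb) and 1 of the 8 (Ms4a8a). The STAT6 form was found in 1 of the 11 (Gstm1) and 1 of the 8 (Retnla). A gene was counted when any of its windows held the motif, whereas the percentages are per window. These matches describe letters in a short window and not binding.

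The list of alternative activation genes leaned the way of Retnla but held no other call. Of its 20 measured members 16, Retnla among them, had a difference below 0, where 47.6% of all genes did. Both means were under 5 for 10 of the 20. The list's median was -0.18 against 0.01 over all genes. Retnla was the only member with non-overlapping arrays or an unadjusted p under 0.05. Mrc1, the mannose receptor and a classical marker of this state, was level at 10.81 in melanophages and 10.88 in macrophages (difference -0.07 ± 0.13). Arg1 (means 3.15 and 3.23) and Chil3 (means 3.19 and 3.34) lay near the array medians in both groups. The receptor for interleukin-4, Il4ra, differed by -0.83 ± 0.45 with overlapping arrays.

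Lyve1, which binds hyaluronan on lymphatic vessels and on some resident macrophages, had the largest difference of any gene named here. It measured 6.21, 7.14 and 6.95 in the melanophage arrays and 9.57, 10.43 and 10.35 in the macrophage arrays. Every macrophage array was higher than every melanophage array by more than the spread inside either group (difference -3.35 ± 0.49, 10.2-fold, adjusted p = 0.109). Timd4 encodes TIM-4, a receptor for phosphatidylserine on dying cells that marks long-lived resident macrophages. Its arrays were 3.46, 3.98 and 3.57 in melanophages and 6.43, 6.44 and 7.05 in macrophages. The melanophage values sat just above the array medians, so the difference of -2.97 ± 0.54 (adjusted p = 0.161) may be understated. Vsig4, the complement receptor CRIg of resident macrophages, had means of 3.25 and 4.74 with overlapping arrays (difference -1.48 ± 0.41).

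The whole list of resident tissue macrophage genes, with Lyve1, Timd4 and Vsig4 in it, was divided. Of 26 measured members, 13 had a difference above 0 and 13 below, and the median was -0.02 against 0.01 over all genes. An unadjusted p under 0.05 was found for 5 lower in melanophages and 0 higher. The coagulation factor gene F13a1 was 1 of the 5 (-0.55 ± 0.21, arrays overlapping). The lectin genes Cd209f (-0.73 ± 0.36), Cd209g (-0.58 ± 0.31) and Cd209b (0.61 ± 0.28) differed in both directions and overlapped. Arrays did not overlap for 4 members lower in melanophages and 2 higher, where 3.91% of all genes were apart and lower and 5.57% higher. The folate receptor Folr2 was among the lower (difference -0.51 ± 0.21), as was Hpgd, which degrades prostaglandins (-0.12 ± 0.10). The 2 higher were Igf1 (0.08 ± 0.09) and the selenium carrier Selenop (0.11 ± 0.07), both by small amounts at bright levels. The haemoglobin scavenger receptor Cd163 (means 8.98 and 9.23), the carbonyl reductase Cbr2 (9.87 and 10.06) and the chemokine Pf4 (12.13 and 12.06) were bright in both groups.

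Genes that identify macrophages were close in level in both groups. All 6 defining markers (Adgre1, Csf1r, Mertk, C1qa, C1qb and C1qc) were measured, and their summed log2 level was 54.34 to 54.98 in melanophages and 53.94 to 55.39 in macrophages. Of 21 core macrophage genes 11 had a difference above 0 and 10 below, with a median of 0.00. Adgre1, a surface receptor much used to identify mouse macrophages, differed by -0.03 ± 0.13. 1 member had non-overlapping arrays in each direction: the lysosomal glycoprotein Cd68 was higher in melanophages (0.33 ± 0.08) and the fractalkine receptor Cx3cr1 lower (-1.28 ± 0.33). Of all genes, 5.57% were apart and higher and 3.91% apart and lower.

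**Figure D2:**
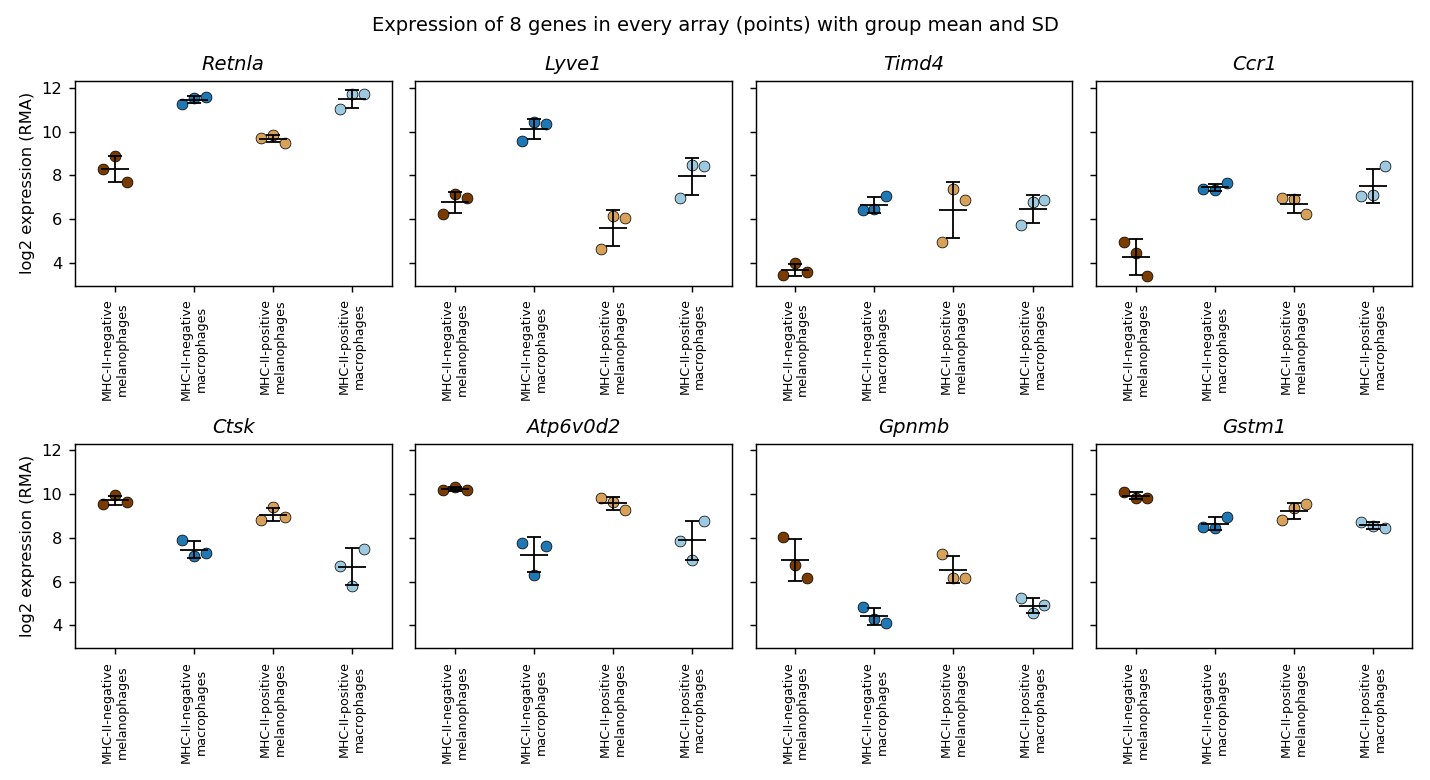
Log2 expression of 8 genes in every array of the 4 groups, with points for arrays and bars for the group mean ± SD (n = 3 a group). The 8 genes are from the largest differences among genes whose MHC-II-negative arrays do not overlap, so their being apart there follows from the choice. Retnla, Lyve1, Timd4 and Ccr1 are lower and Ctsk, Atp6v0d2, Gpnmb and Gstm1 higher in MHC-II-negative melanophages.

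Among chemokine receptors, Ccr1 had the largest difference. Ccr1 binds CCL3, CCL5 and related inflammatory chemokines. It measured 4.96, 4.46 and 3.38 in melanophages and 7.38, 7.33 and 7.62 in macrophages, a difference of -3.18 ± 0.43 (9.05-fold, adjusted p = 0.102). The macrophage arrays agreed closely (SD 0.16) and the melanophage arrays spread down toward the dim end (SD 0.80). With Cx3cr1, Ccr1 was 1 of 2 receptors with an unadjusted p under 0.05 among the 22 measured, of which 17 had both means under 5. Arrays were apart for 5 of the 22 lower in melanophages (Ccr1, Cx3cr1, Ackr3, Ccr3 and Cxcr4) and 0 higher, where 3.91% of all genes were apart and lower. For 3 of the 5 the difference was small: -0.21 for Ackr3, -0.13 for the dim Ccr3 and -0.12 for Cxcr4. The median of the list was -0.04. Cxcr4, the receptor for CXCL12, was bright and close in both groups (means 10.19 and 10.31), although its arrays did not overlap.

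Chemokine ligands were mostly level. Of 32 measured, 3 had non-overlapping arrays lower in melanophages and 1 higher, where 3.91% of all genes were apart and lower and 5.57% higher. Ppbp, a neutrophil-attracting chemokine best known from platelets, measured 6.62, 6.86 and 6.72 in melanophages and 7.88, 8.18 and 8.0 in macrophages (difference -1.29 ± 0.21, adjusted p = 0.111). Ccl6 (-0.96 ± 0.17) and Ccl9 (-0.45 ± 0.15), macrophage chemokines that act through CCR1, had the same sign. Ccl2, Ccl7 and Pf4, all near 12 in both groups, each differed by less than 0.1. Ccl25, the higher member (0.41 ± 0.09), was dim in both groups (means 3.37 and 2.96).

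Several genes of surface proteins for adhesion were lower in mean in melanophages, and none was called. Adgre5 encodes CD97, an adhesion receptor of leukocytes, and measured 6.29, 5.07 and 5.73 in melanophages and 7.18, 7.82 and 8.07 in macrophages (difference -1.99 ± 0.32, adjusted p = 0.111). Of 10 adhesion G protein-coupled receptors measured, 3 had non-overlapping arrays lower in melanophages and 0 higher. Both means were under 5 for 7 of the 10, among them Adgre4 of the 3 apart (means 2.92 and 3.27). Among 21 integrin chains 19 had a difference below 0, and 4 had non-overlapping arrays lower in melanophages and 0 higher. The median of the integrin list was -0.11 against 0.01 over all genes. Over all genes, 47.6% had a difference below 0, 3.91% were apart and lower and 5.57% apart and higher. Itga4, the alpha chain of VLA-4, measured 5.29, 5.04 and 4.90 against 6.09, 5.83 and 5.74 (difference -0.81 ± 0.13, adjusted p = 0.111). Itgam, which encodes CD11b of the sort gate and so is no independent measure, differed by -1.12 ± 0.25 and Itgb5 by -0.52 ± 0.19. Itgav, an alpha chain that pairs with Itgb5, differed by -0.96 ± 0.40 with overlapping arrays. The common chain Itgb2 (means 7.26 and 7.40) was near level, and 14 of the 21 chains had both means under 5.

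Further genes with large differences toward macrophages were a mixed group. Ms4a8a, a membrane protein of the MS4A family that marks some alternatively activated macrophages, measured 4.31, 4.64 and 4.78 in melanophages and 7.25, 6.38 and 7.37 in macrophages (difference -2.43 ± 0.46, adjusted p = 0.185). Cd52, a small anchored glycoprotein of leukocytes, measured 8.24, 7.53 and 7.32 against 9.96, 9.15 and 9.18 (-1.73 ± 0.27, adjusted p = 0.109). Ifitm6, an interferon-induced transmembrane family member of myeloid cells, measured 5.10, 4.63 and 5.33 against 7.14, 6.92 and 6.30 (-1.77 ± 0.27, adjusted p = 0.109). In each of these genes the lowest macrophage array was above the highest melanophage array. Lsp1, an actin-binding leukocyte protein, differed by -1.48 ± 0.26, and Rnase2a, an eosinophil-type ribonuclease, by -2.01 ± 0.63. Tgfbi, a secreted matrix protein bright in both groups, differed by -0.87 ± 0.14 (means 9.23 and 10.10). For Nr1d1, the clock repressor REV-ERB-alpha, and Mustn1, a gene known from skeletal muscle, the macrophage arrays themselves spread widely. Nr1d1 measured 6.83, 8.04 and 8.32 in macrophages and 6.01 to 6.46 in melanophages. Mustn1 measured 4.52, 5.64 and 6.87 in macrophages and 4.11 to 4.38 in melanophages, and its difference of -1.47 became -0.88 without macrophages replicate 3.

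In the direction of melanophages, the largest differences among genes named here were those of Atp6v0d2, Gpnmb and Ctsk. Atp6v0d2 encodes the d2 form of a membrane-sector subunit of the V-ATPase, abundant in osteoclasts. It measured 10.20, 10.34 and 10.19 in melanophages and 7.77, 6.31 and 7.62 in macrophages (difference 3.01 ± 0.45, 8.05-fold, adjusted p = 0.109). The melanophage arrays were almost identical (SD 0.08) and the macrophage arrays were not (SD 0.80). Ctsk encodes cathepsin K, a collagen-degrading lysosomal protease, and measured 9.56, 9.96 and 9.66 against 7.90, 7.18 and 7.34 (2.25 ± 0.36, 4.77-fold, adjusted p = 0.111). Gpnmb, a glycoprotein of melanosomes, lysosomes and phagosomes, measured 8.05, 6.74 and 6.17 against 4.84, 4.30 and 4.11 (2.57 ± 0.45, 5.94-fold, adjusted p = 0.15). Its melanophage arrays spread most of the 3 genes (SD 0.96), and the lowest of them still exceeded the highest macrophage array.

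These 3 genes had the largest differences in their pathways, and most other members lay near 0. Of 18 V-ATPase subunits 14 had a difference above 0, and the median was 0.15. After Atp6v0d2, Atp6v1f had the next largest (0.59 ± 0.31, arrays apart), and the d1 form Atp6v0d1 differed by 0.32 ± 0.27. Among 43 lysosomal hydrolases and their cofactors the median was 0.14, with 29 above 0. Arrays did not overlap for 4 higher (Ctsk, Ctsl, Ctsz and Gusb) and 3 lower (Ctsh, Arsb and Ctsc). For comparison, 52.4% of all genes had a difference above 0, 5.57% were apart and higher and 3.91% apart and lower. Cathepsin H, an aminopeptidase encoded by Ctsh, measured 6.25, 5.30 and 5.88 in melanophages and 7.20, 6.82 and 6.94 in macrophages (difference -1.18 ± 0.22, adjusted p = 0.181). Bright hydrolases such as Ctsb (0.20 ± 0.12), Ctsd (-0.16 ± 0.39) and Lgmn (0.05 ± 0.23) overlapped. Among 27 lysosomal membrane proteins the median was 0.06. Arrays did not overlap for 4 of these higher in melanophages (Gpnmb, Cd68, Lamp1 and the calcium channel Mcoln3) and 0 lower. Mcoln3 (0.63 ± 0.13) was dim in both groups, with means of 3.08 and 2.46.

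The osteoclast list holds the same 3 genes, and the rest of it did not differ in the same way. Of its 18 measured members the median was 0.05. The osteoclast fusion genes Dcstamp and Ocstamp, the calcitonin receptor Calcr, Mmp9 and Itgb3 had means under 3.1 in both groups. Acp5, the tartrate-resistant acid phosphatase, was lower in mean in melanophages (4.77 against 5.42, difference -0.65 ± 0.30). Tnfrsf11a, which encodes RANK, was the only further member with non-overlapping arrays (0.37 ± 0.13, and 0.24 without melanophages replicate 3). Mitf, Tfeb, Tfe3 and Tfec encode the transcription factors that drive lysosomal genes. Mitf differed by 0.22 ± 0.26, Tfec by 0.39 ± 0.30, Tfe3 by -0.33 ± 0.22 and Tfeb by -0.06 ± 0.14, and all overlapped. The sign turned for Mitf and Tfeb when 1 array was left out. Rragd, a GTPase of nutrient signalling at the lysosome and a target of these factors, had non-overlapping arrays (0.41 ± 0.09) at dim levels (3.17 and 2.75).

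The defining transcripts of pigment cells lay at the dim end of the scale in both groups. The 5 defining melanocyte markers (Tyr, Tyrp1, Dct, Pmel and Mlana) lay between 2.20 and 3.33 in melanophages and between 2.19 and 3.56 in macrophages. Their summed log2 level was 13.99 to 14.24 in melanophages and 13.43 to 13.97 in macrophages. The sums did not overlap but nearly met, at levels where all 5 genes were dim. Of 20 measured melanocyte and pigment genes 17 had both means under 5, and the median difference was 0.07. The difference was above 0 for 16 of the 20, where it was for 52.4% of all genes. Arrays were apart for 2 higher and 1 lower, where 5.57% and 3.91% of all genes were. An unadjusted p under 0.05 was found for 0 of the 20. The members with a mean of 5 or more were Rab32 (means 8.54 and 8.37) and Myo5a (7.98 and 7.81), which act in vesicle transport in many cells, and Mitf in melanophages (5.04).

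**Figure D3:**
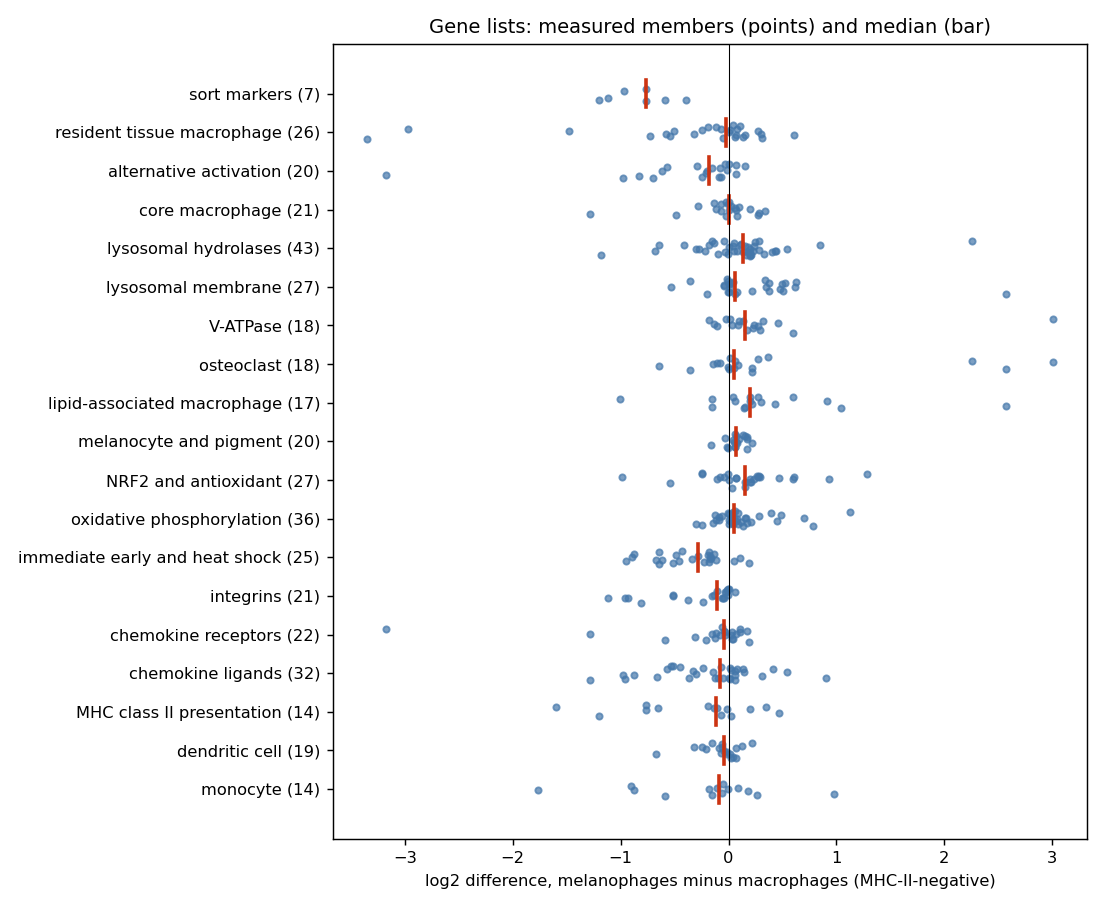
Log2 differences of the measured members of 19 gene lists, with the number of members in brackets. Each point is 1 gene and each red bar is the list's median. The sort markers (median -0.77) and the immediate early and heat shock genes (median -0.28) lie lowest as lists, and single genes such as Lyve1, Timd4, Retnla, Ccr1, Ctsk, Gpnmb and Atp6v0d2 lie far from their lists.

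Gstm1, a glutathione transferase of the mu class, measured 10.12, 9.85 and 9.83 in melanophages and 8.51, 8.46 and 8.98 in macrophages (difference 1.28 ± 0.20, adjusted p = 0.109). Gstm3, of the same class, measured 5.53, 5.61 and 5.68 against 4.70, 4.41 and 4.90 (0.94 ± 0.14, adjusted p = 0.109), and the dim Gstm2 differed by 0.30 ± 0.20 with arrays apart. The mu genes are close in sequence and array probes may read more than 1 of them. Under the alternatives described at the end, the lowest difference was 1.19 for Gstm1 and 0.62 for Gstm3. Gsto1, an omega-class transferase, also did not overlap (0.59 ± 0.12). Other antioxidant genes went the other way: Gstp1 (-0.99 ± 0.42), the glutathione peroxidase Gpx1 (-0.54 ± 0.17) and the haem oxygenase Hmox1 (-0.25 ± 0.12) had non-overlapping arrays lower in melanophages. Over 27 measured NRF2 and antioxidant genes, 5 were apart in the higher direction and 3 in the lower, with a median of 0.15. The shares over all genes were 5.57% higher and 3.91% lower. Nqo1, a classical NRF2 target, was at the dim end in both groups (means 2.48 and 2.45).

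Nuclear-encoded subunits of oxidative phosphorylation had a median difference of 0.05 over 36 genes. Arrays did not overlap for 5 of them higher in melanophages and 0 lower, where 5.57% and 3.91% of all genes were apart in these directions. Among the 5 were Sdhc (1.12 ± 0.39), Uqcrc1 (0.78 ± 0.25) and Cox4i1 (0.28 ± 0.09). Without MHC-II-negative macrophages replicate 1 the difference was 0.56 for Sdhc and 0.50 for Uqcrc1. Of the genes of lipid-associated macrophages, 14 of 17 had a difference above 0, where 52.4% of all genes did. The median of this list was 0.20. Besides Gpnmb, arrays were apart for Lgals3, which encodes galectin-3 (0.60 ± 0.10, adjusted p = 0.111), the fatty acid binding protein Fabp5 (1.04 ± 0.34), Ctsl (0.43 ± 0.18) and the lipid receptor Cd36 (0.22 ± 0.08). The metalloelastase Mmp12 of the same list was lower (-1.0 ± 0.31), and Trem2 (0.27 ± 0.29) and Apoe (0.06 ± 0.10) overlapped.

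A further set of genes with large differences toward melanophages was mixed in function. Il7r, the receptor chain for interleukin-7 and TSLP, measured 8.07, 7.94 and 7.54 in melanophages and 6.64, 5.88 and 5.44 in macrophages (difference 1.87 ± 0.35, adjusted p = 0.181). Anpep, the aminopeptidase CD13, measured 9.56, 8.96 and 9.27 against 6.95, 8.30 and 7.71 (1.61 ± 0.29, adjusted p = 0.164). Cnrip1, which encodes a protein that interacts with cannabinoid receptor 1, measured 7.25, 7.66 and 7.09 against 5.90, 5.71 and 5.80 (1.53 ± 0.21, adjusted p = 0.102). Arrays of the groups did not overlap for any of the 3. Klra3, a Ly49-family lectin whose close relatives may share its probes, measured 7.66, 8.65 and 7.62 against 7.24, 5.32 and 5.85 (1.84 ± 0.56). Cd28 (0.91 ± 0.15), Cd4 (1.08 ± 0.35, and 0.71 without melanophages replicate 1), the pore-forming Mpeg1 (0.99 ± 0.15) and the paired receptor Lilra6 (1.30 ± 0.30) also had non-overlapping arrays. Cd28, Cd4 and Il7r are best known from T cells. Cd3d, Cd3e and Cd3g, which define T cells, lay between 2.18 and 3.64 in all 6 arrays, and Cd2, another T cell gene, was lower in melanophages (2.96, 3.62 and 2.87 against 4.03, 4.20 and 4.32).

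Pianp, which encodes a ligand of the paired receptor PILR-alpha, had the smallest p among genes higher in melanophages (adjusted p = 0.0945). It measured 4.95, 4.64 and 4.64 in melanophages and 3.77, 3.81 and 3.54 in macrophages (difference 1.04 ± 0.13). Naa20, a catalytic subunit of an N-terminal acetyltransferase, measured 7.01, 7.37 and 7.11 against 6.07, 6.21 and 6.21 (1.0 ± 0.16, adjusted p = 0.111). The remaining genes among the 12 largest differences toward melanophages were Disp1, a protein that releases Hedgehog ligands (1.55 ± 0.35), Trp53rka (1.48 ± 0.38) and the antimicrobial ribonuclease Rnase6 (1.39 ± 0.45). Under the alternatives described at the end, their lowest differences were 0.93 for Disp1, 1.12 for Trp53rka and 0.98 for Rnase6.

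The genes of the sort gate leaned toward macrophages, and none was called. All 7 measured members had a difference below 0, with a median of -0.77 against 0.01 over all genes. Non-overlapping arrays, lower in melanophages, were found for 3 of the 7. Of all genes, 47.6% had a difference below 0 and 3.91% were apart and lower. H2-Ab1 differed by -1.20 ± 0.30, H2-Eb1 by -0.76 ± 0.26, H2-Aa by -0.77 ± 0.34, Cd24a by -0.97 ± 0.45, Ccr2 by -0.59 ± 0.28 and Fcgr1, which encodes CD64, by -0.39 ± 0.22. Leaving out 1 array moved 3 of these by over 1.5 times. H2-Aa was -0.41 without melanophages replicate 3 and -1.18 without melanophages replicate 2. Cd24a was -0.58 without melanophages replicate 1 and -0.61 without macrophages replicate 3. Fcgr1 was -0.19 without melanophages replicate 3 or macrophages replicate 1 and -0.62 without macrophages replicate 2. These genes encode the proteins used for sorting, so they are no independent measure of the cells. MHC-II transcripts were well above the array medians in both MHC-II-negative groups. H2-Ab1 averaged 8.05 ± 0.74 (SD, n = 3) in melanophages and 9.25 ± 0.34 in macrophages, against 11.40 ± 0.16 and 11.50 ± 0.15 in their MHC-II-positive counterparts. The invariant chain Cd74 differed by -1.60 ± 0.41 between the MHC-II-negative groups with overlapping arrays. Ciita, the master regulator of these genes, was dim in both (means 2.66 and 2.68).

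Immediate early and heat shock genes, which respond within minutes to stimulation or to handling of tissue, were lower in mean in melanophages. Of 25 measured, 22 had a difference below 0, with a median of -0.28 against 0.01 over all genes. Arrays were apart for 5 in the lower direction and 1 in the higher. The shares over all genes were 47.6% below 0, 3.91% apart and lower and 5.57% apart and higher. The mean log2 level of these 25 genes ran from 7.57 to 7.74 over the melanophage arrays and from 7.78 to 8.19 over the macrophage arrays. Hspa1a, the inducible HSP70, differed by -0.67 ± 0.17, its partner Hsph1 by -0.95 ± 0.27, the antiproliferative Btg2 by -0.90 ± 0.28 and the nuclear receptor Nr4a1 by -0.88 ± 0.34. The arrays of Nr4a1 overlapped, as did those of Fos (-0.13 ± 0.17) and Dusp1 (-0.16 ± 0.10). The part of cell handling in the differences of other genes was not tested. Among 22 inflammatory cytokine genes, Il1b (0.50 ± 0.16) and its antagonist Il1rn (0.46 ± 0.14) were apart in the higher direction, while 3 were apart in the lower, among them Ptgs2, the inducible prostaglandin synthase (-0.87 ± 0.28, and -0.58 without macrophages replicate 3). Tnf (-0.57 ± 0.27) and Il10 (-0.01 ± 0.28) overlapped.

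Markers of other skin cells were mostly dim. Krt5, Krt14 and Krt10 of keratinocytes lay between 2.83 and 3.72 in the 6 arrays, and Pecam1 and Cdh5 of endothelium between 2.69 and 3.12. Lyve1 is also an endothelial gene, and the summed level of Pecam1 and Cdh5 was 5.46 to 5.78 in melanophages and 5.74 to 6.08 in macrophages, with Cdh5 apart and lower in melanophages (-0.23 ± 0.09). Dendritic cell markers (Zbtb46, Flt3 and Xcr1) lay between 2.54 and 3.58. Mast cell genes Cpa3 and Mcpt4 reached 7.86, with a summed level of 8.84 to 14.43 in melanophages and 11.73 to 13.06 in macrophages. Of 12 mast cell genes 10 had both means under 5. The fibroblast genes Col1a1 and Col1a2 were dim (means from 3.28 to 3.73), but Dcn averaged 5.26 in melanophages and 6.31 in macrophages (difference -1.06 ± 0.50). Summed over Col1a1, Col1a2 and Dcn the level was 11.68 to 13.19 in melanophages and 12.15 to 14.00 in macrophages. Of the neutrophil genes, S100a8 was higher in mean in melanophages (0.98 ± 0.45) and its partner S100a9 lower (-0.90 ± 0.26), with Ly6g at 2.32 and 2.31. The part of such cells in the differences above was not tested.

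The MHC-II-positive melanophages and macrophages, which share no array with the comparison above, gave the nearest parallel, with 3 genes called (0.015%). Of the 12 largest differences toward MHC-II-negative melanophages, 10 had the same sign among MHC-II-positive cells and 6 had non-overlapping arrays in that direction there, where 7.51% of all genes did. Of the 12 largest toward MHC-II-negative macrophages, 11 had the same sign and 7 were apart, where 3.91% of genes were apart in the MHC-II-negative and 4.91% in the MHC-II-positive comparison. Ctsk differed by 2.38 ± 0.36 in MHC-II-positive cells, Cnrip1 by 1.29 ± 0.21, Ppbp by -1.37 ± 0.21 and Ifitm6 by -1.50 ± 0.27, close to their values in MHC-II-negative cells. Retnla differed by -1.80 ± 0.28, with means of 9.68 in MHC-II-positive melanophages and 11.48 in MHC-II-positive macrophages. Its level in macrophages was thus close in both MHC-II classes and its level in melanophages was lower in the MHC-II-negative class.

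Other genes had a smaller difference among MHC-II-positive cells. Timd4 had means of 6.4 and 6.47 in MHC-II-positive melanophages and macrophages (difference -0.07 ± 0.54), so that its low level was seen in MHC-II-negative melanophages. Ccr1 had means of 6.69 and 7.52 there (-0.82 ± 0.43), and its arrays were apart in both classes. Il7r was bright in both MHC-II-positive groups (8.78 and 8.94), and MHC-II-negative macrophages were the dim group. Cd2, Ccl6 and Itga4 differed by 0.01 ± 0.18, -0.04 ± 0.17 and 0.08 ± 0.13 among MHC-II-positive cells. The test of the difference between the classes, the interaction, passed for 0 genes with limma (0% of genes, with 820 genes, 4.11%, at an unadjusted p under 0.05). The interaction was 2.90 ± 0.76 for Timd4, 2.35 ± 0.61 for Ccr1, -2.03 ± 0.49 for Il7r, 0.89 ± 0.19 for Itga4 and 1.37 ± 0.39 for Retnla, and the lowest adjusted p over all genes was 0.965. So none of these patterns was shown to be particular to MHC-II-negative cells.

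**Figure D4:**
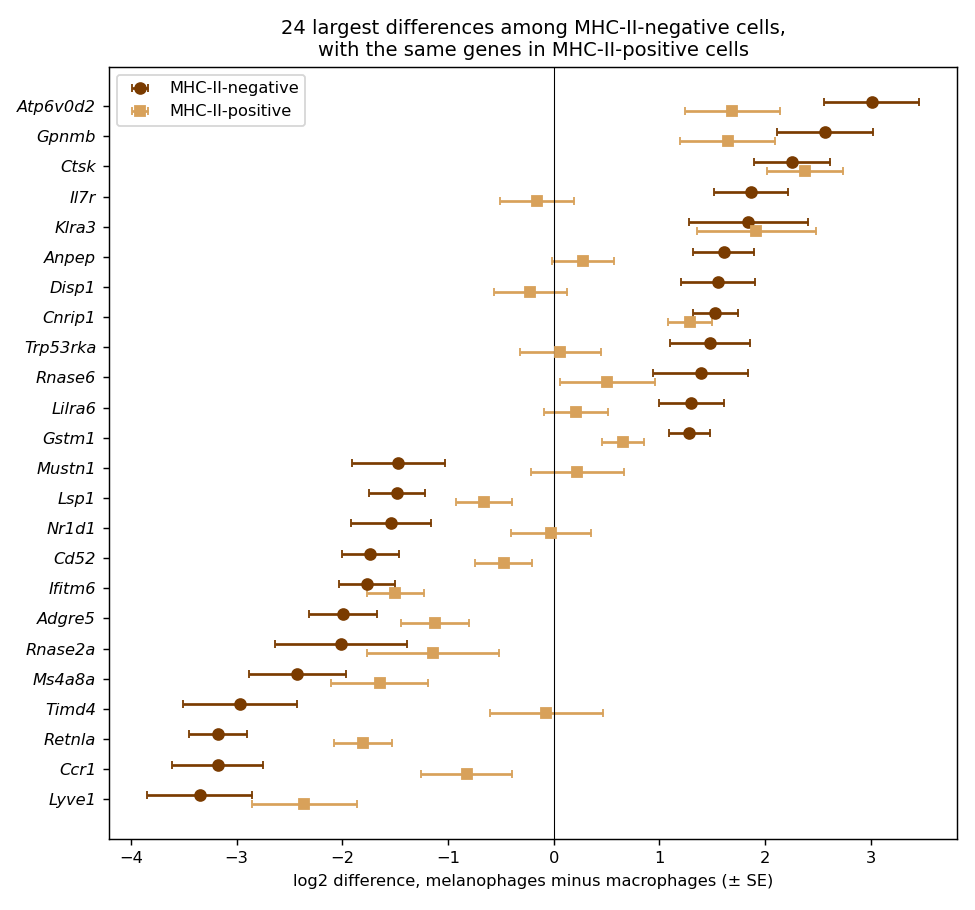
Log2 differences, melanophages minus macrophages, for the 24 genes with the largest differences among MHC-II-negative cells (brown circles, ± SE) and the same genes among MHC-II-positive cells (tan squares, ± SE). Ctsk, Klra3, Cnrip1 and Ifitm6 have close values in both classes, while Timd4, Il7r, Disp1, Nr1d1 and Trp53rka lie near 0 among MHC-II-positive cells.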

How the data were processed

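RNA from sorted cells was extracted with a Qiagen micro kit, 3 to 20 ng was amplified and biotin-labelled with NuGEN kits, and Affymetrix arrays were hybridised, per the labels' protocols. The authors deposited log2 expression values made by RMA with oligo, per the submitters' processing notes. Versions, RMA settings and filters: not given in the sources used here. RMA pools information across arrays and compresses differences at the dim end. The number of arrays limits the precision.

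Of 35556 probe sets, 21789 have a single symbol in the annotation used, 1621 several and 12146 none. Where probe sets shared a symbol, the brightest on average over the 12 arrays stood for the gene (19938 genes), and no filter on dim genes was used. limma 3.58.1 (lmFit, eBayes) in R 4.3.3 fitted a mean for each of the 4 groups to all 12 arrays (8 residual and 2.44 prior degrees of freedom), two-sided, with Benjamini-Hochberg adjustment over all genes. The labels do not state whether a group's 3 arrays are of different animals: p-values then cover just the variation among these samples, possibly technical. The fit for MHC-II-negative melanophages minus macrophages was also run on data drawn from these arrays' spread, with known changes among 19938 genes. It called 62% of 100 genes changed by 1 and 95% of 100 changed by 2 on the log2 scale, with 7 false calls. The changed genes were drawn only from those brighter than the median gene. Many planted changes also make the adjusted threshold easier to reach. So these shares do not tell how often such a change would be called in the real data.

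The genes, lists and comparison were chosen with earlier results of these data known. Genes named by rule were the called gene, the 12 largest differences in each direction among non-overlapping genes with a group mean of 5 or more, up to 6 more in each direction with the smallest p, the sort markers, and up to 4 members of each of 47 lists with the smallest p under 0.05. Predicted genes were left out. Other list members were named as examples after their values were seen. Of 980 list entries, 903 were matched. The lists described are those in the text; the rest are not reported here. Alternatives were filters, normalisations, probe set rules, moderation, array weights, fewer groups, leaving out arrays and, added later, the numbered runs of the titles as a block.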

Additional observations from a re-analysis of the deposited data

Results flagged for a closer look

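Uqcrc1, a core subunit of respiratory complex III, moved in opposite directions in the MHC-II classes: its arrays were apart and higher in MHC-II-negative melanophages than in MHC-II-negative macrophages (0.78 ± 0.25), and apart and lower in MHC-II-positive melanophages (-0.56 ± 0.25). Without MHC-II-negative macrophages replicate 1 the first of these was 0.50. The difference between the classes was -1.35 ± 0.35 and did not pass over all genes with limma (unadjusted p = 0.00301, and no adjusted p under 0.965 for any gene). Over all genes, 36 were apart upward among MHC-II-negative and downward among MHC-II-positive melanophages, and 41 the other way round.

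A probe set that the platform annotation given here does not name, 10344175, was outside the gene table. In the fit of every probe set it was called beside Retnla (difference -3.12 ± 0.26, limma adjusted p = 0.0103). It measured 6.18, 5.98 and 6.68 in MHC-II-negative macrophages and 3.20, 2.98 and 3.32 in MHC-II-negative melanophages. MHC-II-positive macrophages were at 3.35, 2.91 and 3.15 and MHC-II-positive melanophages at 3.28, 3.46 and 4.27. Every MHC-II-negative macrophage array was thus above every array of the other groups. The interaction was 3.65 (adjusted p = 0.066).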

How the results depend on the processing

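For the 115 genes named by rule, 0 of 2715 values under the alternatives changed sign, 54 gained a call and 4, all of Retnla, lost it; 30 of these genes moved by over 1.5 times without 1 array of the groups compared. Of 82 further genes given as examples, 35 had another sign in at least 1 alternative, none with a difference over 0.45 in size. Retnla passed in 20 of 24 alternatives, with differences from -3.48 to -2.88 and adjusted p from 0.000162 to 0.108. The count of called genes was 1 as reported. It was 21 (11 higher and 10 lower) when only genes with a mean of 5 or more in either group compared were tested, a filter that uses the compared groups and tests fewer genes. Among the 20 gained there were Lyve1, Ccr1, Timd4, Ctsk, Gpnmb, Atp6v0d2, Gstm1 and Il7r. The count was 11 with trend and robust moderation, 12 without both far macrophage arrays, 2 with quantile normalisation again, 2 over every probe set, and 0 with the arrays of the groups compared alone (limma, 980 genes at an unadjusted p under 0.05). Leaving out 1 array gave 0 to 8 calls. Among MHC-II-negative arrays, 0 were called without melanophage array 1 or without macrophage array 2 or 3, and 4 without melanophage array 2. Among MHC-II-positive arrays, the count was 8 without melanophage array 1, 2 without melanophage array 2, 3 without macrophage array 2 and 2 without macrophage array 3. Genes whose arrays did not overlap numbered 1722 to 3294 higher and 1498 to 1995 lower without 1 array of these groups, where 2 arrays face 3; the highest counts were without MHC-II-negative macrophages replicate 1.

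Among MHC-II-positive cells 3 genes were called. The count was 6 with array weights, 11 with trend and robust moderation, 5 over every probe set, 5 over the brighter genes, 1 over genes with a mean of 5 or more in the MHC-II-negative groups, 34 without both far arrays, and 0 with quantile normalisation again or with the arrays of these groups alone. It was 0 to 20 without 1 array. The interaction gave 0 calls, and 0 to 3 without 1 array (1 without array 1 and 3 without array 2 of the MHC-II-positive macrophages). The sample titles are numbered in 3 runs, each with 1 array of each group, and what a run stands for is not stated. Deviations from the group means correlated at -0.25 to 0.27 over 18 same-run pairs, and 2 of 12 arrays correlated best with their own run, so the runs were not taken as pairs. With the runs as a replicate block, an alternative chosen after seeing the data, 6 genes were called among MHC-II-negative cells (2 higher and 4 lower), 2 among MHC-II-positive cells and 0 for the interaction. The cause of these shifts was not tested.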
